A study of Rattus norvegicus with 12 samples.

Results

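The genes described here are 10 cell proliferation genes, Gins2, Mcm2, Mcm5, Pcna, Rrm2, Ccna2, Ccnb1, Cdk1, Top2a and Mki67, read by symbol from a table of the rat left atrium that holds counts for 21239 genes. The list was chosen by the Gins2 levels under ARNI, which were lower than in the other SHR groups, and the remaining members are DNA replication and division genes, so the Gins2 values in the comparisons of ARNI with SHR and with ARB are given as a description without a test. All 10 members passed the filter on low counts in all 4 comparisons.

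RNA was sequenced from 12 samples labelled left atrium, 3 in each of 4 groups. Wistar-Kyoto rats (WKY, the normotensive control strain) and spontaneously hypertensive rats (SHR, an inbred model of genetic hypertension) received saline at 7.5 ml/kg/day. The ARB group were SHRs given valsartan, an angiotensin receptor blocker, at 30 mg/kg/day. The ARNI group were SHRs given sacubitril/valsartan, which joins the same receptor blocker to a neprilysin inhibitor, at 60 mg/kg/day. Treatment lasted 4 weeks in all groups, and the rats were 14 weeks old at purchase. The treated groups were compared with saline-treated SHRs, which carry the same genotype.

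Cell proliferation genes are read out in waves through the cell cycle. Before DNA synthesis, the MCM proteins are loaded on replication origins as an inactive helicase, and the GINS complex, of which Gins2 encodes a subunit, joins them with CDC45 to form the active helicase. PCNA then clamps DNA polymerases to the template, ribonucleotide reductase supplies deoxynucleotides, and cyclin A, cyclin B and CDK1 carry the cell into mitosis. In the adult heart most cardiomyocytes no longer divide, and dividing cells are found mainly among fibroblasts, endothelial cells and immune cells. In bulk tissue, fewer cells of a type and less RNA per cell cannot be told apart.

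The libraries held 11252361 to 15823525 expected counts, and 3 counts, the lowest level taken as detected, equalled 0.190 to 0.267 CPM, the unit of all levels below, which is the count scaled to a common library total. This floor covers counting error only, whereas the intervals of fold changes come from the fit over libraries and include the spread between them. For the 6 WKY and SHR libraries the strain words in the title and the library name in brackets disagree, and the bracketed name was used, so that reading them by title words would turn the sign of every difference between SHR and WKY. ARB and ARNI libraries are labelled with the WKY strain beside an SHR phenotype. Mettl24 had 3.02 to 3.58 CPM in the 3 libraries named WKY and at most 0.0688 CPM in the other 9, and Ndufa10l1 had no read in the former and at least 54.0 CPM in the latter, so all 9 libraries of the SHR, ARB and ARNI groups shared 1 pattern for these genes.

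The chamber markers went against the tissue label in some libraries. Ventricular genes (Myl2, Myl3, Myh7 and Irx4) made up 99.4% to 99.9% of the summed ventricular and atrial marker CPM in the 3 WKY libraries and 99.6% in ARNI replicate 2, where Myl7, the atrial light chain, was at 0.889 to 15.9 CPM and 9.67 CPM. Their share was 26.2% in SHR replicate 2 and 22.3% in ARB replicate 3, and 0.477% to 2.57% in the other 6 libraries. Strain and chamber marker content therefore cannot be told apart between SHR and WKY, and the treated comparisons are given below also without ARNI replicate 2, SHR replicate 2 or ARB replicate 3 where this matters.

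Promoters were read because the members include genes of the G1/S wave, often bound by E2F factors, and of the G2/M wave, known for CCAAT boxes and the cell cycle homology region (CHR). RefSeq promoter windows of build GRCr8, from 250 bases before to 50 bases after the start, were matched for 8 of the 10 members, all but Ccna2 and Rrm2. The CCAAT box was found on either strand in 7 of the 8 windows, against 37.5% of 33469 promoters of the same length. The CHR element TTTGAA was found in 4 of the 8, Mki67, Top2a, Cdk1 and Mcm2, against 18.3% of all promoters. An E2F motif, searched as TTTGGCGC, TTTCCCGC, TTTCGCGC or TTTGCCGC, was found in 3 of the 8, Mcm2, Mcm5 and Cdk1, against 2.14%. A CHR and a CCAAT match shared 1 base in Mki67, and pairs of E2F matches shared 4 bases in Mcm2 and in Mcm5. The stretches below are shown because they hold matches close to the start of Top2a, Ccnb1, Cdk1 and Mcm5 and the single match of Gins2, with matches on either strand in capitals, and they are printed in the direction of transcription. They lie at chr19:65548135-65548164 (minus strand) for Gins2, chr10:84473094-84473193 (minus) for Top2a, chr2:33655226-33655325 (minus) for Ccnb1, chr20:19265152-19265251 (plus) for Cdk1 and chr19:13488713-13488812 (plus) for Mcm5.
Gins2: cagagccggagaCCAATgaagaaaaagggg
Top2a: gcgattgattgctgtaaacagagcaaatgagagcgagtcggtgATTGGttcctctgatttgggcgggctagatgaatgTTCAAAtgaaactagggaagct
Ccnb1: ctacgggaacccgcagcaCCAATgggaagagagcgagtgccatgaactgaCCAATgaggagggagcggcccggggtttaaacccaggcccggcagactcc
Cdk1: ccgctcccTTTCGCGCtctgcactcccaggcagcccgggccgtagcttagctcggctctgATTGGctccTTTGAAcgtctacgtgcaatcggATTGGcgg
Mcm5: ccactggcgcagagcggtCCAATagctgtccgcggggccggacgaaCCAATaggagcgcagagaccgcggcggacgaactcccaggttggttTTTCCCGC

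The Gins2 window held 1 CCAAT box, 100 bases before the start, and neither of the other motifs. Of the 300 bases of this window, 218 lie inside the annotated span of Gins2, so the start used differs from the edge of that span. The same number was 41 for Cdk1 and 0 for Top2a, Ccnb1 and Mcm5. Ccnb1, with 2 CCAAT boxes, and Pcna, with 1, likewise held no CHR or E2F match. Top2a had 4 CCAAT boxes and 1 CHR match, and Cdk1 had all 3 kinds of motif, with another CHR match 16 bases before the start, outside the stretch shown. A match is a description of the letters and no measurement of binding.

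Gins2 is described first because its levels under ARNI chose the list. Its levels were 4.15, 4.64 and 5.05 CPM in WKY replicates 1 to 3 and 10.6, 10.2 and 8.17 CPM in SHR. They were 10.4, 10.7 and 8.46 CPM in ARB and 4.97, 3.35 and 4.11 CPM in ARNI. The SHR and ARB libraries thus lay between 8.17 and 10.7 CPM, and the WKY and ARNI libraries between 3.35 and 5.05 CPM, without overlap. The ARNI part of this split chose the list and is no result. By CPM, SHR lay above WKY without overlap in 33.7% of all genes tested. The group means were 9.86 ± 1.22 CPM in ARB, 9.68 ± 1.32 CPM in SHR, 4.62 ± 0.446 CPM in WKY and 4.14 ± 0.809 CPM in ARNI (SD, n = 3 each), in which ARB and SHR, and WKY and ARNI, overlapped as neighbours.

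Gins2 was higher in SHR than in WKY by 0.94 on the log2 scale (SE 0.19, 95% interval 0.47 to 1.40, 1.92-fold), with an adjusted p of 0.0229 by the quasi-likelihood test of edgeR, Benjamini-Hochberg adjusted over 13794 genes. This passed the p threshold of 0.05 but not the fold threshold of 1 on the log2 scale, so Gins2 was not called. Leaving out WKY replicate 1, 2 or 3 or SHR replicate 1 took its adjusted p in the same edgeR test to 0.0911, 0.0914, 0.0731 and 0.0771, and DESeq2 gave 0.00581. In this comparison 20.6% of all genes tested passed the p threshold, 12.3% higher in SHR.

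ARB differed from SHR in Gins2 by 0.05 on the log2 scale, with a 95% interval from -0.41 to 0.50 and an adjusted p of 0.9999 by edgeR's quasi-likelihood test. Under ARNI, the contrast that chose the list, Gins2 was 2.22-fold lower than in SHR (log2 fold change -1.15) and 2.28-fold lower than in ARB (-1.19). The highest ARNI level, 4.97 CPM, lay below the lowest SHR level, 8.17 CPM, and the lowest ARB level, 8.46 CPM. Without ARNI replicate 2, the library with ventricular markers, the remaining ARNI libraries read 4.97 and 4.11 CPM.

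**Figure D1:**
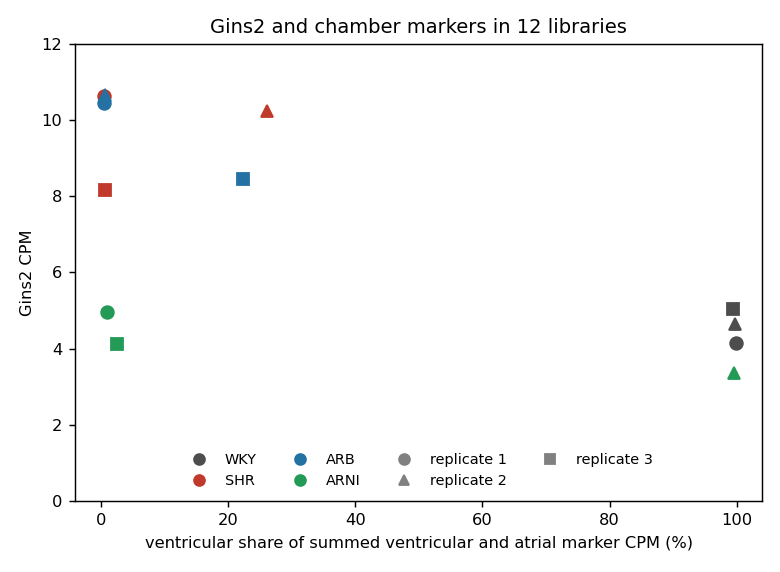
Gins2 level in CPM (vertical axis) against the ventricular share of the summed chamber marker CPM in percent (horizontal axis) for each of the 12 libraries, coloured by group with a symbol for each replicate number. ARNI replicates 1 and 3 read 4.97 and 4.11 CPM in Gins2 at ventricular shares of 0.964% and 2.57%. SHR replicate 2 and ARB replicate 3 read 10.2 and 8.46 CPM at 26.2% and 22.3%. The ARNI levels chose the list, and the part of chamber content was not tested.

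In the plot of Gins2 against the chamber markers, the ARNI levels are those that chose the list. Among the 6 libraries with a share up to 2.57%, the SHR and ARB libraries read 8.17 to 10.7 CPM and the ARNI libraries 4.11 and 4.97 CPM. No library with a share above 99% had a high Gins2 level, and all 3 WKY libraries were among these. The part of chamber content in the Gins2 levels was not tested.

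Gins2 is counted in this table with fractional reads in 12 of 12 libraries, so part of its count was assigned by RSEM among features that share sequence. The partner feature was not found. Its counts ranged from 42.6 to 158.86.

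The other subunits of the GINS ring were low in every library. Gins4 read 1.28, 1.48 and 0.978 CPM in WKY and 3.41, 2.37 and 2.78 CPM in SHR. It read 3.31, 2.54 and 2.22 CPM in ARB and 3.03, 1.34 and 2.37 CPM in ARNI. Its SHR libraries lay above all WKY libraries, with a log2 fold change of 1.06 (SE 0.27) and an adjusted p of 0.0406 by edgeR's quasi-likelihood test, so that Gins4 was called. The ARNI library nearest to the WKY levels was replicate 2, the library with ventricular markers. Gins1 and Gins3 had group means of 0.672 to 1.30 CPM, and none of their differences passed the test.

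**Figure D2:**
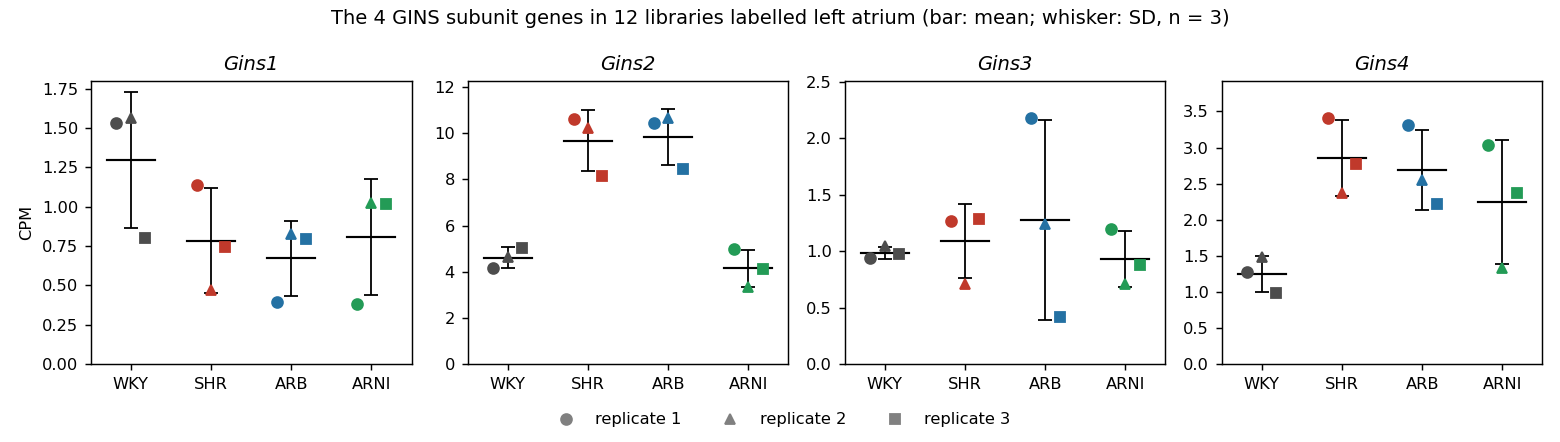
Levels in CPM (vertical axis) of the 4 GINS subunit genes in the WKY, SHR, ARB and ARNI groups, with a point per library, a bar at the mean and a whisker for the SD (n = 3). Gins2 and Gins4 lay higher in SHR than in WKY without overlap, and the ARNI libraries lay below all SHR libraries in Gins2 but not in Gins4.

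Mcm2 encodes a subunit of the MCM helicase on which GINS acts. Its levels were 12.7, 13.6 and 11.3 CPM in WKY, 13.5, 11.8 and 17.3 CPM in SHR, 12.9, 13.9 and 9.91 CPM in ARB and 11.6, 7.23 and 11.0 CPM in ARNI. All ARNI libraries lay below all SHR libraries, by a narrow margin of 11.6 against 11.8 CPM. The log2 fold change was -0.44 (SE 0.20, 95% interval -0.93 to 0.04) with an adjusted p of 0.999 by edgeR's quasi-likelihood test, and it was -0.31 without ARNI replicate 2, the lowest library.

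Mcm5, another subunit of the same helicase, behaved differently from Mcm2. It read 4.01, 9.57 and 4.09 CPM in WKY, 2.34, 3.15 and 4.06 CPM in SHR, 2.65, 2.06 and 3.25 CPM in ARB and 1.52, 4.64 and 2.85 CPM in ARNI. WKY replicate 2 stood above all others and was 2.06-fold above the next library, ARNI replicate 2. SHR against WKY gave a log2 fold change of -1.02 (SE 0.40, adjusted p 0.110 by edgeR's quasi-likelihood test), and -0.49 without WKY replicate 2. Of the other MCM subunits, Mcm6 was lower in SHR by the same test (log2 fold change -0.92, adjusted p 0.0380), and Mcm7, at 0.49, had an adjusted p of 0.0750, so the fitted values of the subunits lay on both sides of 0.

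Pcna, the polymerase clamp, had the narrowest relative range after Ccna2. It read 24.3, 20.8 and 21.5 CPM in WKY, 25.7, 25.1 and 29.7 CPM in SHR, 22.4, 24.9 and 27.1 CPM in ARB and 23.4, 19.97 and 24.6 CPM in ARNI. The SHR libraries lay above all WKY and all ARNI libraries, but the fitted differences were small. They were 0.13 (SE 0.10) for SHR against WKY, where the groups overlapped once libraries were scaled by TMM, and -0.16 (SE 0.11) for ARNI against SHR.

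Rrm2 encodes the small, cell-cycle-regulated subunit of ribonucleotide reductase. It read 2.56, 5.65 and 2.93 CPM in WKY, 3.54, 1.66 and 7.65 CPM in SHR, 0.992, 2.201 and 1.66 CPM in ARB and 3.54, 1.65 and 2.92 CPM in ARNI. SHR replicate 3 was the highest of the 12 libraries and SHR replicate 2 lay within the ARB range. ARB against SHR gave -1.35 on the log2 scale (SE 0.56, unadjusted p 0.0468, adjusted p 0.9999 by edgeR's quasi-likelihood test), and -0.70 without SHR replicate 3. Rrm1, which encodes the large subunit, differed by -0.07 in that comparison.

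Among the cyclins and their kinase, Ccna2, whose product acts in S phase and at entry to mitosis, varied least. It lay between 1.72 and 2.26 CPM in the 12 libraries, and its SD within each group, 0.122 to 0.244 CPM, was below the error that counting alone gives at 19.9 to 33.0 counts. Its count was not whole in 11 of 12 libraries, with the fractional part shared with Exosc9, so its level is uncertain. Ccnb1 and Mki67 had counts that were not whole in 12 of 12 libraries, with no partner found, so their levels carry the same limit.

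Ccnb1, the mitotic cyclin B1, read 1.35, 2.76 and 2.45 CPM in WKY, 1.63, 1.32 and 2.86 CPM in SHR, 1.44, 1.81 and 0.983 CPM in ARB and 1.35, 1.73 and 1.31 CPM in ARNI. All groups overlapped. Its partner kinase Cdk1 was at the limit of this depth, with 6 to 26 reads per library. It read 0.938, 1.30 and 0.533 CPM in WKY, 1.34, 0.710 and 1.76 CPM in SHR, 0.595, 0.619 and 0.713 CPM in ARB, where each library held 9 reads, and 0.822, 0.865 and 0.746 CPM in ARNI. The ARNI libraries lay above all ARB libraries in CPM but overlapped them after TMM scaling. The log2 fold change was 0.39 with a 95% interval from -0.49 to 1.28, so a difference was not detectable at this depth.

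Top2a, the topoisomerase that untangles sister chromatids, read 1.96, 2.43 and 3.55 CPM in WKY, 2.07, 1.26 and 5.42 CPM in SHR, 1.39, 1.31 and 1.51 CPM in ARB and 2.84, 1.65 and 2.04 CPM in ARNI. The ARB libraries lay below all ARNI libraries, as for 3.01% of all genes. Mki67, which encodes the proliferation marker Ki-67, read 3.99, 6.73 and 5.10 CPM in WKY, 2.56, 3.70 and 8.16 CPM in SHR, 1.56, 3.00 and 1.72 CPM in ARB and 4.67, 2.96 and 3.60 CPM in ARNI. Its ARB levels overlapped those of SHR and ARNI, the latter by 3.00 against 2.96 CPM.

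For ARB against SHR, the log2 fold change of Mki67 was -1.13 (SE 0.46, unadjusted p 0.0451, adjusted p 0.9999 by edgeR's quasi-likelihood test) and that of Top2a was -0.99 (SE 0.52). Without SHR replicate 3 they were -0.59 and -0.26. For ARNI against ARB they were 0.89 (SE 0.32, unadjusted p 0.0312, adjusted p 0.993 by the same test) and 0.68 (SE 0.31), and without ARNI replicate 2 they were 0.96 and 0.78.

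**Figure D3:**
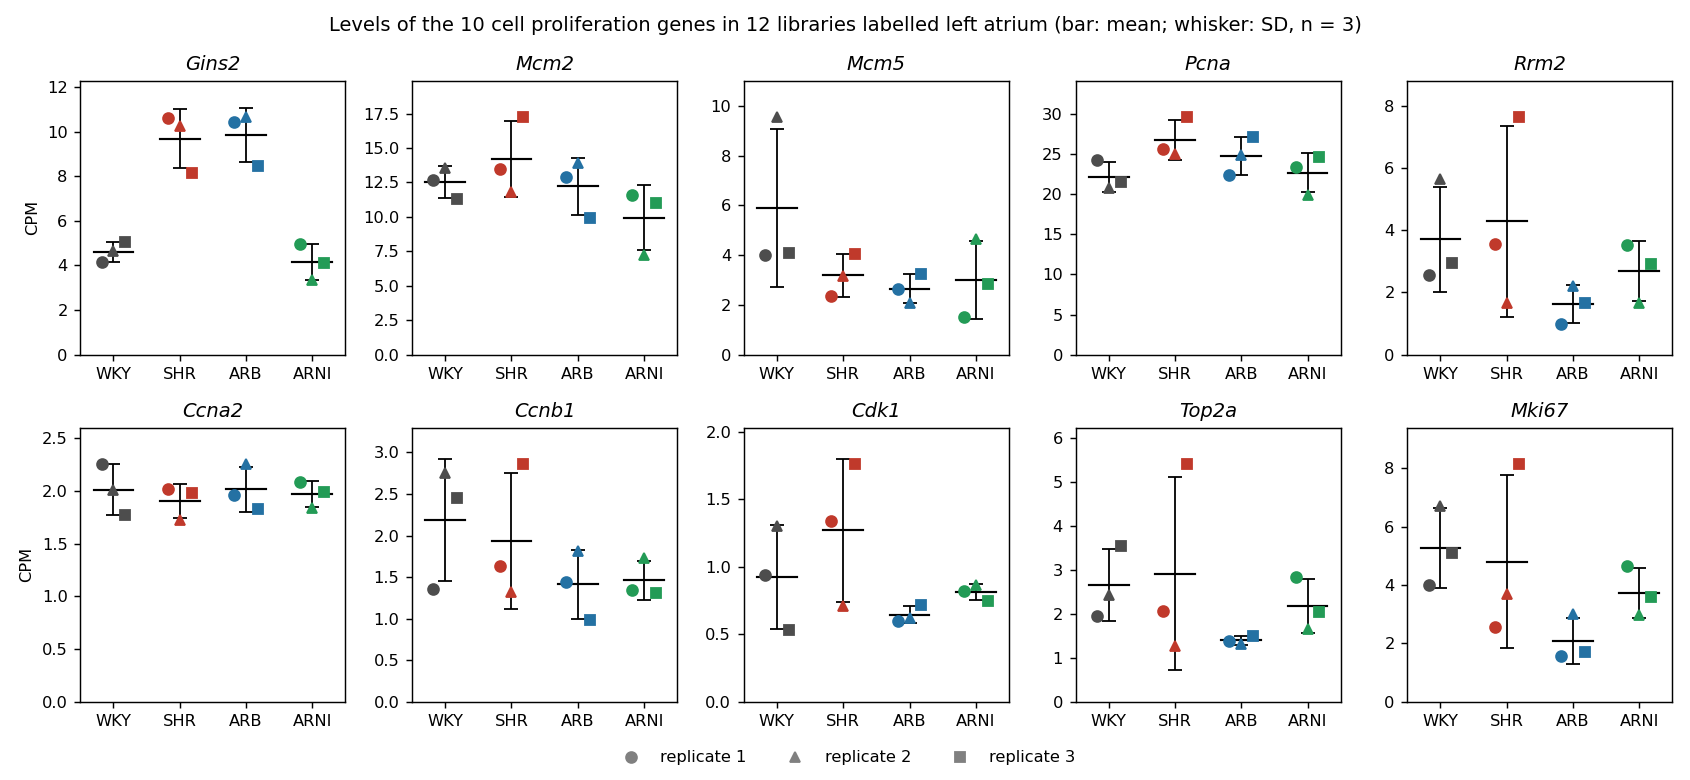
Levels in CPM (vertical axes, each from 0) of the 10 cell proliferation genes in the WKY, SHR, ARB and ARNI groups, with a point per library, a symbol per replicate number, a bar at the mean and a whisker for the SD (n = 3). Gins2, whose ARNI levels chose the list, splits the libraries into a set of 8.17 to 10.7 CPM and a set of 3.35 to 5.05 CPM. By CPM without TMM scaling, SHR replicate 3 is the highest library for 7 of the other members.

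By CPM, SHR replicate 3 was the highest of 12 libraries in 7 of the 10 members, Mki67, Top2a, Ccnb1, Cdk1, Mcm2, Pcna and Rrm2. Its summed level over the 10 members was 87.0 CPM, of which Pcna held 29.7 CPM and Mcm2 17.3 CPM. ARNI replicate 2 had the lowest sum, 45.9 CPM, and the other 10 libraries lay between 55.2 and 69.4 CPM. SHR replicate 3 was not high in Gins2, where it was the lowest of the SHR and ARB libraries. These ranks and sums are without TMM scaling, whose factor was highest in SHR replicate 3, 1.111, and lowest in ARNI replicate 2, 0.905. Scaling therefore narrows the gap between the sum of SHR replicate 3 and the others. With levels divided by these factors, Ccnb1 was higher in WKY replicate 2 (factor 0.960) and Pcna in ARB replicate 3 (0.948) than in SHR replicate 3.

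SHR replicate 3 also had the highest summed level of the 7 fibroblast markers, 2771 CPM against 781 to 1934 CPM in the other 11 libraries, and of the 6 epicardial markers, 336 CPM against 41.0 to 247 CPM. Its sum over 10 macrophage markers, 308 CPM, was exceeded only in ARB replicate 3, at 449 CPM. All markers of these 3 lists had reads in every library. Single markers did not all follow the sums. By CPM, the fibroblast markers Col1a1, Col1a2, Dcn and Lum were highest in SHR replicate 3. Pdgfra and Postn were higher in WKY replicate 2, and Tcf21 in ARB replicate 3. The epicardial markers Msln, Upk1b and Upk3b were highest in SHR replicate 3. Wt1 was higher in WKY replicate 3, and Krt8 and Krt19 in ARNI replicate 3. The part of these cell types in the levels of the mitotic members was not tested.

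**Figure D4:**
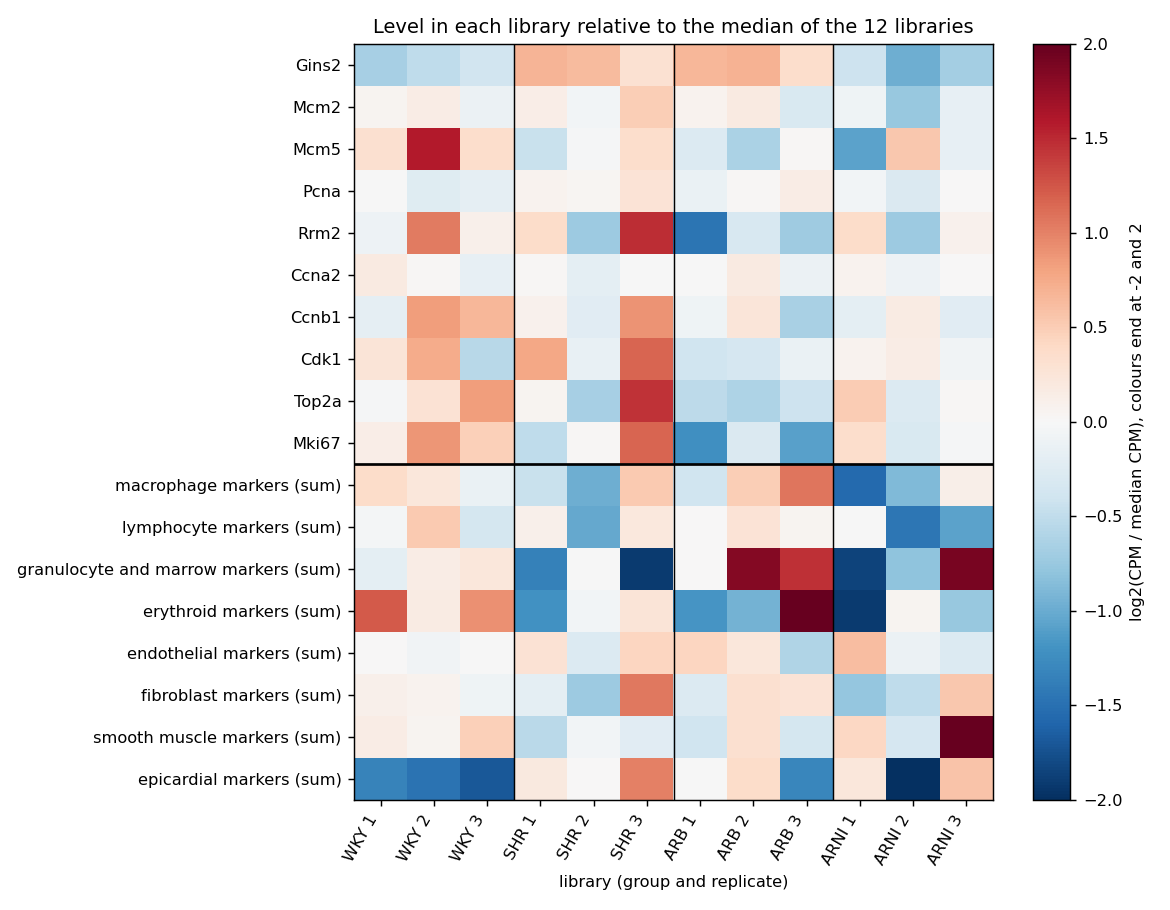
Level of each member, and summed level of the markers of 8 cell types, in each library as log2 of the CPM over the median of the 12 libraries, with red above and blue below the median and colours ending at -2 and 2. The column of SHR replicate 3 is red for 7 members at their highest CPM, without TMM scaling, and for the fibroblast and epicardial markers. For Gins2, whose ARNI levels chose the list, SHR replicate 3 is the lowest of the SHR and ARB libraries.

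Between SHR and WKY none of the 10 members was called, against 8.89% of the genes tested (1226 of 13794). Genes were called by edgeR where the log2 fold change reached 1 in size and the adjusted p did not exceed 0.05. For a list of 10 genes, none called is near that share and is no result about the members. Their 95% intervals ran from -1.276 to 1.232 for Top2a and from -1.255 to 1.35 for Rrm2, but from -0.1005 to 0.3685 for Pcna. At an unadjusted p under 0.05 there were 2 members, Gins2 and Mcm5, against 39.4% of all genes, and DESeq2 called 1601 genes and 0 members. The median log2 fold change of the members was 0.01, that of all genes tested was 0.01, and 5 members were above and 5 below 0. By CPM, 2 members, Gins2 and Pcna, lay above WKY without overlap, where 33.7% of all genes did. After TMM scaling Gins2 alone lay above WKY, where 24.9% of all genes did, and Mcm5 lay below WKY without overlap, where 22.4% did. Without scaling beyond the total count the median of all genes was 0.15, so small differences between SHR and WKY rest on the scaling.

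ARB against SHR gave no called member, and 0.0% of 13979 genes were called by edgeR. At an unadjusted p under 0.05 there were 2 members, Mki67 and Rrm2, against 1.61% of all genes, and DESeq2 called 3 genes and 0 members. Of the 9 members other than Gins2, 8 had a log2 fold change below 0, with a median of -0.43, against -0.01 for all genes. These values share the SHR libraries, SHR replicate 3 included, and no member's groups were free of overlap, as for 5.39% of all genes.

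ARNI against SHR likewise gave no called member and 0.0% of 13955 genes by edgeR, with none of the 9 other members at an unadjusted p under 0.05 against 1.63% of all genes, and DESeq2 called 7 genes and 0 members. Of the 9 members other than Gins2, 7 were below 0, with a median of -0.31 against 0.00 for all genes. Besides Gins2, 2 members lay below SHR without overlap, Mcm2 and Pcna, where 5.18% of all genes did. The sign of Mki67, Top2a, Ccnb1 and Rrm2 turned when SHR replicate 3 was left out, to log2 fold changes of 0.29, 0.42, 0.03 and 0.09.

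ARNI against ARB gave no called member and 0.0% of 13948 genes by edgeR, with Mki67, of the 9 members other than Gins2, at an unadjusted p under 0.05 against 3.86% of all genes. DESeq2 called 18 genes and 0 of these 9 members. Of the 9 other members 7 were above 0, with a median of 0.25 against 0.02 for all genes. Top2a and Cdk1 lay above ARB without overlap in CPM, where 3.01% of all genes did, and Mki67 and Top2a did after TMM scaling, where 5.02% did. Gins2 lay below ARB without overlap, as did 7.52% of all genes.

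**Figure D5:**
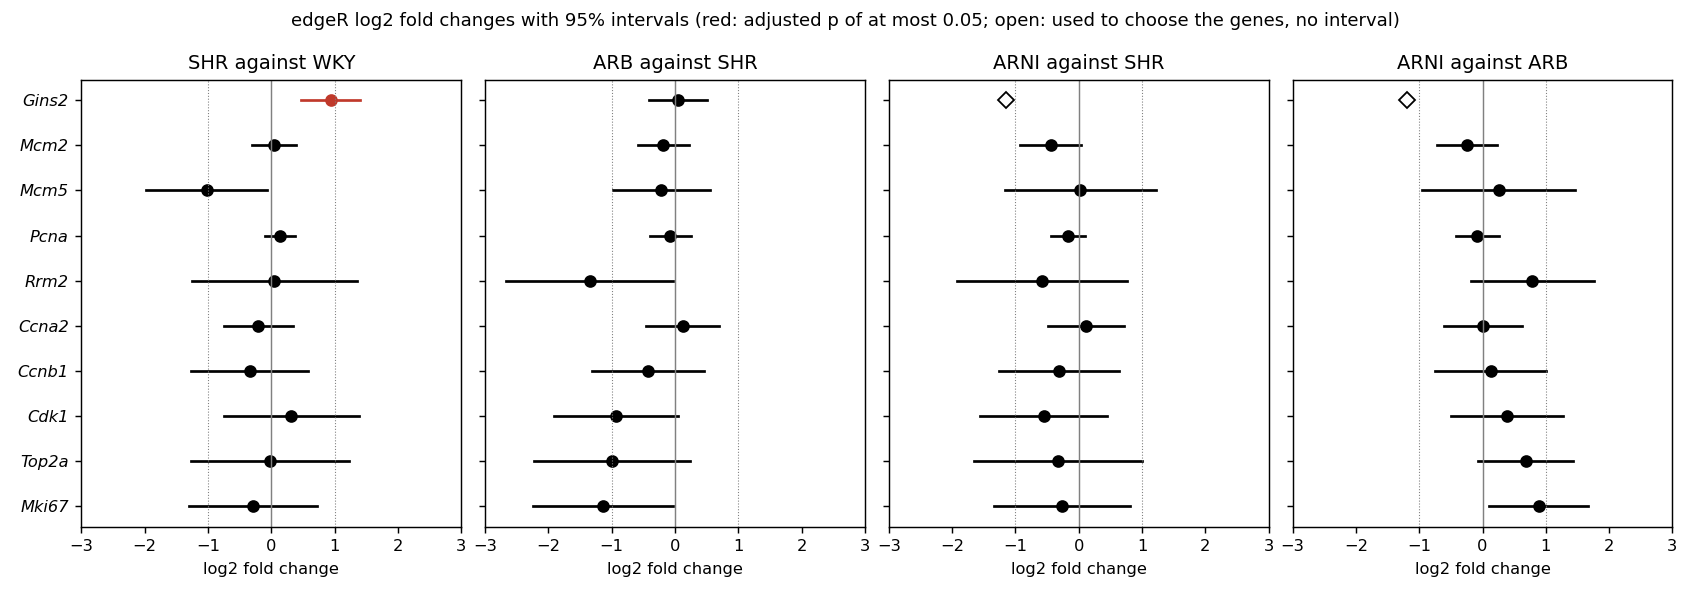
Log2 fold changes from edgeR (horizontal axes) of the 10 cell proliferation genes in the 4 comparisons, with 95% intervals, a red point where the adjusted p was at most 0.05, and open diamonds without an interval for the values that chose the genes. Gins2 in SHR against WKY (0.94) is the only red point, and the intervals of the mitotic members reach over 1 log2 unit to either side of their values in several comparisons.

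A wider set of 139 cell cycle genes in 7 lists was read from the same fit of SHR against WKY. Of 119 tested, 4 were called higher and 2 lower, 5.04% against 8.89% of all genes, and 14.3% passed the p threshold against 20.6%. The lists share the 10 members. Cdkn1a, the inhibitor p21, fell from 127.5 ± 16.9 CPM in WKY to 24.1 ± 15.5 CPM in SHR (log2 fold change -2.53, adjusted p 0.0235 by edgeR). Cdc25b, a phosphatase that activates CDK1, was lower too (-1.32, adjusted p 0.00672 by edgeR).

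The called genes that rose were Dlgap5, a spindle protein (1.46), Prim2, the large primase subunit (1.32), Pold2, a subunit of DNA polymerase delta (1.10), and Gins4 (1.06), with adjusted p-values of 0.0402, 0.0206, 0.00765 and 0.0406 by edgeR. In ARNI replicate 2, the treated SHR library with ventricular markers, all 6 called genes lay toward or beyond the WKY levels and farther in that direction than in the other 8 libraries of the SHR, ARB and ARNI groups. Prim2 read 2.36 CPM, against 2.67 to 3.84 CPM in WKY and 6.23 to 11.4 CPM in SHR. Dlgap5 read 1.97 CPM there, against 3.55 to 4.78 CPM in WKY, and Pold2 read 29.6 CPM, against 24.7 to 25.7 CPM in WKY. Cdkn1a and Cdc25b read 76.8 and 24.4 CPM there, and at most 38.9 and 19.3 CPM in the other 8 libraries. The part of chamber content in these differences was not tested.

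In the treated comparisons no gene of the lists was called by edgeR. With the 10 members left out, 107 genes were tested for ARB against SHR, 110 for ARNI against SHR and 105 for ARNI against ARB, of which 2, 1 and 4 had an unadjusted p under 0.05 and 0 were called by DESeq2. Of these, 66.4%, 74.5% and 55.2% had a log2 fold change below 0, against 51.4%, 49.3% and 46.8% of all genes tested.

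The mitosis list, which holds Top2a and Mki67, had 27 of 31 genes below 0 for ARB against SHR (median -0.43, all genes -0.01) and 25 of 33 for ARNI against SHR (median -0.27, all genes 0.00). Without SHR replicate 3 these were 24 of 31 (median -0.17) and 20 of 34 (median -0.05). For ARNI against ARB, 24 of 31 were above 0 (median 0.13, all genes 0.02), and 17 of 31 without ARNI replicate 1 (median 0.05). The origin licensing and helicase list without Gins2, which holds Mcm2 and Mcm5, had 12 of 15 genes below 0 for ARNI against SHR (median -0.28). It had 10 of 15 for ARB against SHR (median -0.12) and 12 of 14 for ARNI against ARB (median -0.13). Leaving out 1 library moved these counts. ARNI against SHR had 11 of 15 without SHR replicate 3 and 14 of 15 without SHR replicate 1. ARB against SHR had 9 of 15 without ARB replicate 3 (median -0.03) and 12 of 16 without SHR replicate 2. ARNI against ARB had 9 of 15 without ARNI replicate 3 and 13 of 15 without ARNI replicate 1. These comparisons share libraries, and no gene of either list passed the adjusted threshold in them by edgeR.

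The genes most correlated with Gins2 were not members. This is a description only, because the Gins2 profile holds the ARNI levels that chose the list. Over the 12 libraries, among 13541 genes with a mean of at least 1 CPM, the Pearson correlation of log2(CPM + 1) was highest for Tmem216 (0.958), Vmac (0.952), Cbx3 (0.931), Cactin (0.929) and Irak1bp1 (0.913), which were picked for it and share libraries and groups with Gins2. Vmac, for example, read 20.7 to 21.4 CPM in WKY, 26.8 to 36.3 CPM in SHR, 29.7 to 33.2 CPM in ARB and 19.5 to 23.3 CPM in ARNI. Of the members, Pcna (0.55) and Mcm2 (0.50) had the highest values, at ranks 3086 and 3779 of 13541, and Mki67 (-0.38) and Mcm5 (-0.43) the lowest. Cdk1 had too low a mean for this measure.

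Gins2 lies on chromosome 19 between Gse1 and C19h16orf74 in RefSeq gene order, neighbours that were looked up after the Gins2 values were known. Gse1 read 36.9 to 41.9 CPM in WKY, 51.0 to 67.6 CPM in SHR, 34.9 to 82.3 CPM in ARB and 45.6 to 80.9 CPM in ARNI. C19h16orf74 had at most 3.555 CPM in WKY and 6.60 CPM in ARNI replicate 2, its highest library. Neither followed the Gins2 pattern across the 4 groups.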

How the data were processed

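Left atrial RNA of 12 rats was sequenced on a BGISEQ-500, 1 library per rat as the study describes it, and p-values measure only the spread between these samples. The authors filtered reads with SOAPnuke, aligned them with HISAT2 2.0.4 and Bowtie2 2.2.5, and quantified genes with RSEM. The expected counts were deposited by the authors without normalization. The submitters' processing notes name the build Rnor_6.0. Of 37246 genes listed, 21239 had counts, and 23.6% of values were not whole. The deposited table also holds a log2 fold change and a p-value of the authors' own comparison of the 2 saline groups, which were not used.

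Libraries were grouped by their bracketed names. Expected counts were rounded to whole numbers, filtered by filterByExpr and scaled by TMM. The quasi-likelihood test of edgeR 4.0.16 in R 4.3.3 was run on the 6 libraries of each pair, with Benjamini-Hochberg adjustment over all genes tested. Standard errors were derived from the F statistic, and CPM is the expected count over the library total, scaled to a common total. DESeq2 1.42.0 was an alternative, beside other scalings, no filter, a fit of all 12 libraries, a replicate block and leaving out each library. Leaving out pairs of libraries with mixed or ventricular markers, and recounting 2 gene lists without each library, were chosen after seeing the data. The test was tested on simulated data for SHR against WKY: of genes changed by 2 on the log2 scale, edgeR recovered 100% at a dispersion of 0.02 (13858 genes) and 92.5% at 0.1 (13860 genes).

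Same-numbered libraries deviated together with correlations of 0.54, 0.49 and 0.19 in ARNI against SHR, and not in all pairs of the other comparisons. This match comes from the data alone, as the labels give no pairing. SHR replicate 2 and ARNI replicate 2 had the highest ventricular marker shares of their groups, 26.2% and 99.6%. The part of chamber content in the match was not tested. Replicates differed beyond counting error, with a chi-square per degree of freedom of 4.03 to 6.37 between WKY libraries. It was 42.7 to 105.8 in SHR, 23.54 to 93.55 in ARB and 59.31 to 231 in ARNI. The members and lists were chosen with earlier results of these data known. Named genes were the 10 members, list genes called (at most 8 per comparison) and the 5 genes most correlated with Gins2. Symbols were taken from the deposited table, and 19467 identifiers matched a RefSeq GRCr8 table used for neighbours and promoters only.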

Additional observations from a re-analysis of the deposited data

How the results depend on the processing

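No alternative turned the sign of Gins2 in SHR against WKY. The same held in both ARNI comparisons, whose Gins2 values chose the list, so that there it is a description and no support. The log2 fold change of Gins2 ranged from 0.87 to 1.08 in SHR against WKY, with adjusted p from 0.00581 to 0.0914 over edgeR and DESeq2 settings. Without scaling beyond the total count, or without SHR replicate 3, 1 member, Gins2, was called in SHR against WKY, among 1348 and 1147 genes called. Leaving out 1 library thus gave 0 to 1 members called. Genes called in SHR against WKY numbered 579 with all 12 libraries in 1 fit and 681 with the replicate block, against 1226, and 348 to 2205 when 1 library was left out: 393, 353 and 348 without WKY replicates 1, 2 and 3, 577 without SHR replicate 1 and 2205 without SHR replicate 2. With the block the adjusted p of Gins2 was 0.0730 in edgeR. The labels give no pairing. Same-numbered libraries matched best in every pair only in ARNI against SHR, by correlation alone, and there the block changed no call. DESeq2 called 3, 7 and 18 genes in ARB against SHR, ARNI against SHR and ARNI against ARB, and 1 member in the last, Gins2, whose values chose the list, so that this is no support. Signs turned in uncalled log2 fold changes as follows, and the cause was not tested. Without scaling, Top2a was 0.147 in SHR against WKY, Mcm5 -0.0901 in ARNI against SHR and Ccna2 -0.0513 in ARNI against ARB. With the replicate block, Rrm2 was -0.05 in SHR against WKY and Mcm5 -0.104 in ARNI against SHR. With all 12 libraries in 1 fit, Ccna2 was -0.00538 in ARNI against ARB. Leaving out 1 library, or ARNI replicate 2, SHR replicate 2 or ARB replicate 3 in pairs, gave these ranges. In SHR against WKY, Mki67 ranged from -0.84 to 0.0148, Top2a from -0.754 to 0.306, Mcm2 from -0.0744 to 0.123 and Rrm2 from -0.60 to 0.47. In ARB against SHR, Gins2 ranged from -0.0974 to 0.187. In ARNI against SHR, Mki67 ranged from -0.567 to 0.292, Top2a from -0.663 to 0.418, Ccnb1 from -0.702 to 0.0256, Rrm2 from -0.942 to 0.0865 and Mcm5 from -0.53 to 0.372. In ARNI against ARB, Ccnb1 ranged from -0.284 to 0.29, Ccna2 from -0.0467 to 0.0466, Mcm5 from -0.312 to 0.591 and Pcna from -0.151 to 0.0439. Members at 6 to 26 reads, such as Cdk1, allow no statement on small differences, and 3 libraries a group leave intervals over 1 log2 unit wide for the mitotic members.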
